A study of Mus musculus with 18 samples.

Results

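The genes described here are the cytoplasmic actins and a set of factors that build and turn over actin filaments. They are the 9 genes whose Ensembl identifiers map to Actb, Actg1, Cfl1, Pfn1, Wdr1, Arpc2, Arpc5, Diaph1 and Diaph3, out of 46078 genes in the count table. All 9 passed the filter on low counts and were among the 13438 protein-coding genes tested. They were measured by total RNA sequencing in wild-type E14 cells, a mouse embryonic stem cell (mESC) line of 129 background ("129m wt" in the labels). The cells had spent 24 h on StemBond hydrogels coated with fibronectin, in medium with serum and LIF, a cytokine that keeps mESCs self-renewing. StemBond gels are polyacrylamide with the co-factor AHA (6-acrylamidohexanoic acid), which tethers extracellular matrix to the gel. Stiffness was about 750 Pa for soft gels and about 160 kPa for stiff gels, each made with AHA at 16 mM (low), 48 mM (mid) and 80 mM (high), with 3 libraries in each of the 6 groups, named Soft16, Soft48, Soft80, Stiff16, Stiff48 and Stiff80 in the labels. No group carried a genetic change, no cells on another substrate were included here, and all cells came from 1 line.

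Actin filaments grow from actin monomers and are taken apart again, and this turnover drives cell shape, adhesion and contraction. Beta-actin (Actb) and gamma-actin (Actg1) are the actins of non-muscle cells. Profilin (Pfn1) loads monomers onto growing ends, the Arp2/3 complex (with the subunits Arpc2 and Arpc5) starts branches, and diaphanous formins (Diaph1, Diaph3) elongate unbranched filaments. Cofilin (Cfl1) severs old filaments, helped by Wdr1, also called Aip1. Free actin monomers hold back the co-activators Mrtfa and Mrtfb of the transcription factor SRF, so that the actin pool and the transcription of actin genes are coupled in many cell types.

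Gene counts per library ranged from 5850621 to 9290261. In 17 libraries, ERCC spike-in RNAs took 0.607 to 0.725% of counts. They took 1.37% in the soft, high AHA library named replicate 1, which was left out of the fit, so that 8 soft and 9 stiff libraries remained and the soft, high AHA group held 2. The 16 pairs of used libraries within groups differed by more than counting noise (chi-square per degree of freedom 1.9 to 8.54). Nothing in the labels says that libraries of a group came from separate cultures, so p-values measure the spread between libraries, which may be technical. Of the defining markers of embryonic stem cells, the 6 genes Pou5f1, Nanog, Sox2, Zfp42, Esrrb and Klf4 were all present, with a summed level of 1595 to 1756 CPM (read counts scaled to a common library total) in soft and 1428 to 1535 CPM in stiff libraries. Lower levels of a transcript in these bulk samples can mean fewer cells that make it or less of it per cell, which cannot be told apart. The 6 markers of fibroblast feeders summed to 119 to 200 CPM in soft and 173 to 243 CPM in stiff libraries, with none at 0 throughout, and the collagen gene Col1a1 made up most of this (109 ± 24.6 CPM in soft, SD, n = 8, and 155 ± 20.1 CPM in stiff, n = 9). The part of this difference in the results below was not tested.

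Levels of the 9 genes were first ordered per length of exon sequence, over all 17 libraries. Actb was by far the most abundant at 1718 CPM per kilobase, with a lowest library of 1514 and a highest of 1857. It was followed by Pfn1 (595), Cfl1 (243), Wdr1 (137), Arpc2 (95.5), Diaph1 (70.6) and Arpc5 (38.9 CPM per kilobase), and the ranges of neighbours in this order did not overlap. Diaph3 (17.6, range 14.7 to 20.2) and Actg1 (15.1, range 11.9 to 18.5 CPM per kilobase) came last, and their ranges overlapped. For Actg1 this level counts only the reads assigned to the gene itself, and its near-identical pseudogenes, described further on, took more reads than it did. With their counts added, Actg1 stood at 124 CPM per kilobase (range 109 to 141), between Wdr1 and Arpc2, and its range then overlapped that of Wdr1.

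**Figure D1:**
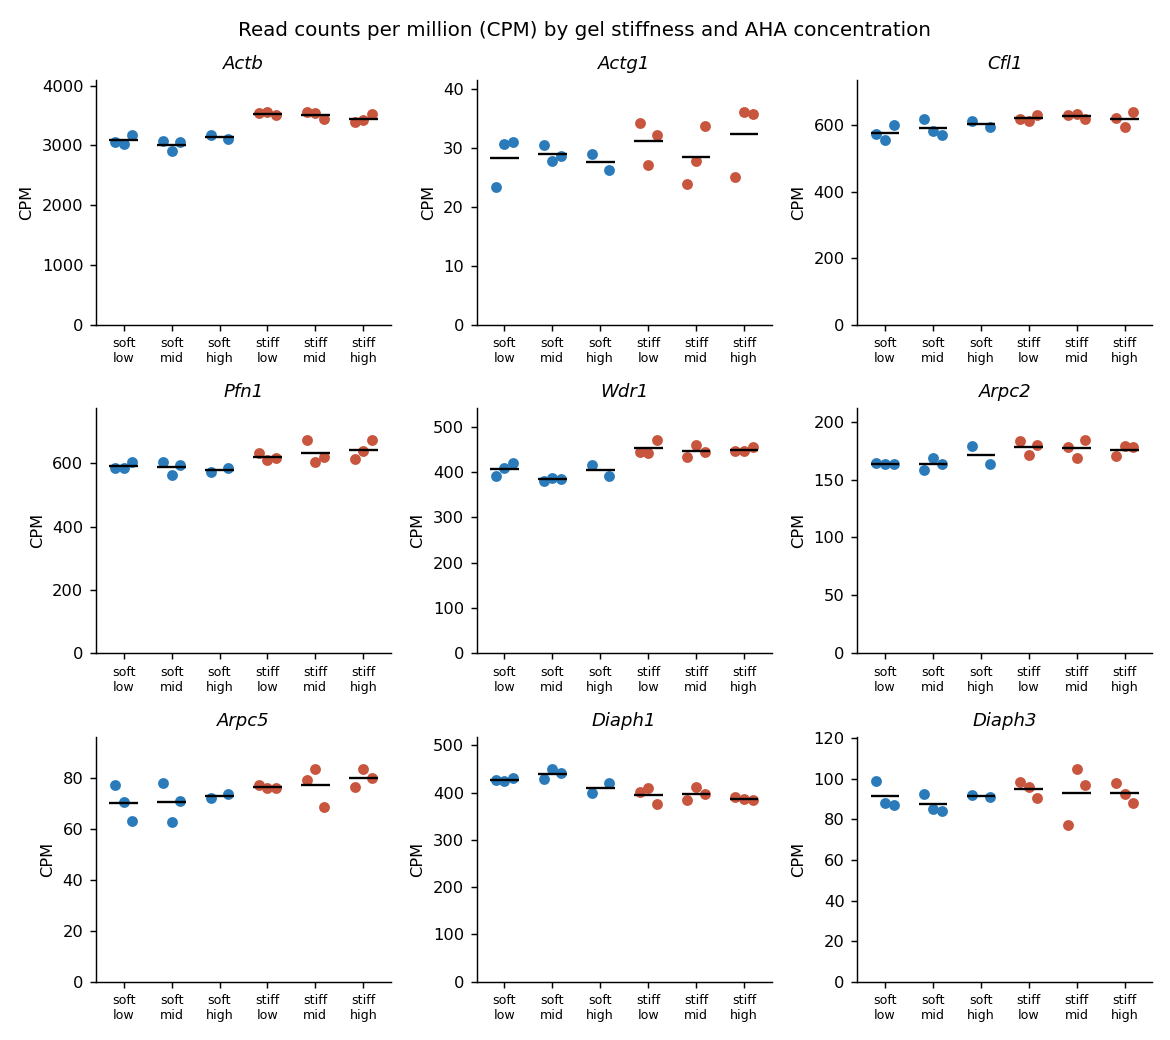
Library-scaled read counts (CPM, vertical axes starting at 0) of the 9 genes in the 17 libraries used, by stiffness and AHA concentration; blue points are soft and red points stiff libraries, and the black lines are group means of 3 libraries (2 for soft, high AHA). Actb, Pfn1 and Wdr1 lay lower in every soft library than in any stiff library, while Diaph1 lay higher in 7 of 8 soft libraries than in all stiff libraries.

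The first question was whether stiffness changed the transcripts of these genes, averaged over the 3 AHA concentrations. Of the 9 genes, 4 were lower on soft gels (Actb, Wdr1, Pfn1 and Cfl1) and 1 was higher (Diaph1), at an adjusted p under 0.05. Among all tested genes, 4.82% were called lower and 3.77% higher, or 8.59% in either direction. The changes were small, between 0.881 and 1.08 times the stiff level. The median log2 fold change (soft minus stiff throughout) of the 9 genes was -0.11, against 0.001 for all 13438 genes, and 8 of the 9 were negative, against 49.7% of all genes. Actb, Pfn1 and Wdr1 were lower in each of the 8 soft libraries than in every stiff library, which held for 0.871% of tested genes. The calls above used libraries scaled to a common total. Scaling to the ERCC spike-ins instead, as described below, ended the 4 lower calls.

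Actb (ENSMUSG00000029580, chr5:142903115-142906754 in GRCm38, minus strand), the gene of beta-actin, was counted in soft libraries at 3053, 3032 and 3170 CPM at low AHA, 3082, 2907 and 3054 CPM at mid AHA, and 3183 and 3108 CPM at high AHA. In stiff libraries it stood at 3542, 3555 and 3502 CPM at low AHA, 3565, 3546 and 3438 CPM at mid AHA, and 3388, 3425 and 3533 CPM at high AHA. The highest soft library thus lay below the lowest stiff library. The average log2 fold change was -0.18 ± 0.018 (SE), with a 95% confidence interval of -0.22 to -0.15 and an adjusted p of 2.26e-16 (edgeR quasi-likelihood test, Benjamini-Hochberg adjustment, as for all adjusted p-values of gene tests here). Actb was also called lower at each AHA concentration, at -0.20 at low AHA (adjusted p = 2.25e-07), -0.22 at mid (adjusted p = 3.63e-09) and -0.13 at high AHA (adjusted p = 0.0185). At high AHA the call was lost without soft replicate 3 (adjusted p = 0.301) or without stiff replicate 3 (adjusted p = 0.155), and in a fit of those 2 groups alone (adjusted p = 0.0796).

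Wdr1 (ENSMUSG00000005103, chr5:38526813-38563221, minus strand), which speeds filament disassembly together with cofilin, showed a change of like size. Soft libraries held 391, 409 and 420 CPM at low AHA, 381, 387 and 385 CPM at mid AHA, and 416 and 391 CPM at high AHA. Stiff libraries held 444, 441 and 470 CPM at low AHA, 433, 460 and 443 CPM at mid AHA, and 447, 446 and 455 CPM at high AHA, so the groups did not overlap. The average log2 fold change was -0.17 ± 0.026 (adjusted p = 4.42e-08). At single concentrations Wdr1 was called at low (-0.15, adjusted p = 0.0215) and mid AHA (-0.21, adjusted p = 0.000281). At high AHA the value was -0.15 (adjusted p = 0.105), and with the left-out soft library included it was -0.20 and passed (adjusted p = 0.00114). The call at low AHA was lost without soft replicate 1 (adjusted p = 0.228), soft replicate 2 (adjusted p = 0.0659) or stiff replicate 3 (adjusted p = 0.243).

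Pfn1 (ENSMUSG00000018293, chr11:70651850-70654644, minus strand), the main profilin of most cells, had 563 CPM in its lowest, 585 in its median and 605 in its highest soft library. The lowest, median and highest stiff libraries had 605, 620 and 673 CPM, and the highest soft and the lowest stiff library differed by less than 1 CPM. Averaged over AHA, Pfn1 was lower by a log2 fold change of -0.11 ± 0.024 (adjusted p = 0.00056). No single concentration passed the test, with values of -0.066 at low, -0.11 at mid and -0.15 at high AHA (adjusted p = 0.522, 0.16 and 0.078). At high AHA it passed with the left-out soft library included (-0.16, adjusted p = 0.0105) or without stiff replicate 1 (adjusted p = 0.041). Pfn2, its neuronal-enriched paralog, was scarce (8.28 ± 1.52 CPM in soft and 9.58 ± 0.789 CPM in stiff libraries), and its log2 fold change of -0.20 did not pass (adjusted p = 0.449).

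Cfl1 (ENSMUSG00000056201, chr19:5490455-5495201, plus strand), the non-muscle cofilin, ranged from 557 to 619 CPM (median 590) in soft and from 596 to 641 CPM (median 623) in stiff libraries. The groups overlapped, and 5 of 8 soft libraries lay below the lowest stiff library. The average log2 fold change was -0.077 ± 0.024 (adjusted p = 0.023), the smallest among the called genes, and no single concentration passed (adjusted p = 0.159, 0.285 and 0.856 at low, mid and high AHA). It lost its call when any 1 of 6 libraries was left out (soft, low AHA replicate 2, soft, mid AHA replicate 3, soft, high AHA replicate 3, stiff, low AHA replicate 3, stiff, mid AHA replicate 2 or stiff, high AHA replicate 3), with adjusted p-values from 0.0598 to 0.0975. It also lost it when every coding gene with at least 2 counts was tested (-0.073, adjusted p = 0.0514). Exons of the gene Snx32 on the opposite strand covered 16.5% of its exon bases, and whether counting used the strand was not given in the sources used here. Destrin (Dstn), a close relative of cofilin that also depolymerises filaments, fell by a log2 fold change of -0.14 ± 0.026 (adjusted p = 1.68e-05), from 533 ± 14.7 CPM in stiff to 482 ± 28.4 CPM in soft libraries. Muscle cofilin (Cfl2) stood at 26.3 ± 3.19 CPM in soft and 29.6 ± 3.7 CPM in stiff libraries (adjusted p = 0.166).

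Diaph1 (ENSMUSG00000024456, chr18:37843601-37935476, minus strand), the formin mDia1, which elongates unbranched filaments, went the other way. Soft libraries held 427, 424 and 431 CPM at low AHA, 428, 451 and 442 CPM at mid AHA, and 400 and 420 CPM at high AHA. Stiff libraries held 401, 410 and 376 CPM at low AHA, 384, 413 and 397 CPM at mid AHA, and 392, 387 and 384 CPM at high AHA. All soft libraries but 1, at high AHA, lay above every stiff library. The average log2 fold change was 0.11 ± 0.026 (adjusted p = 0.000843). Diaph1 was called at mid AHA (0.15, adjusted p = 0.0389) and stood at 0.11 at low and 0.081 at high AHA (adjusted p = 0.167 and 0.595). The call at mid AHA was lost without soft replicate 2 or 3 or stiff replicate 1 or 3 of that concentration (adjusted p = 0.199, 0.0992, 0.205 and 0.11).

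The remaining members did not pass the test on the average. Arpc2 (ENSMUSG00000006304, chr1:74236084-74268209, plus strand), a core subunit of the Arp2/3 complex, ranged from 158 to 179 CPM in soft and from 169 to 184 CPM in stiff libraries, with 7 of 8 soft libraries below the lowest stiff one and a log2 fold change of -0.091 ± 0.034 (adjusted p = 0.0838). Arpc5 (ENSMUSG00000008475, chr1:152766542-152775597, plus strand), a subunit with the paralog Arpc5l, ranged from 62.8 to 77.8 CPM in soft and from 68.4 to 83.6 CPM in stiff libraries, with a log2 fold change of -0.13 ± 0.051 (adjusted p = 0.106). Each passed in 1 alternative, Arpc2 without soft, high AHA replicate 2 (adjusted p = 0.0367) and Arpc5 without stiff, mid AHA replicate 3 (adjusted p = 0.0441). Diaph3 (ENSMUSG00000022021, chr14:86655367-87141235, minus strand), the formin mDia2, ranged from 84.3 to 98.7 CPM in soft and from 77 to 105 CPM in stiff libraries, a log2 fold change of -0.06 ± 0.047 with a 95% confidence interval of -0.15 to 0.032 (adjusted p = 0.518).

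**Figure D2:**
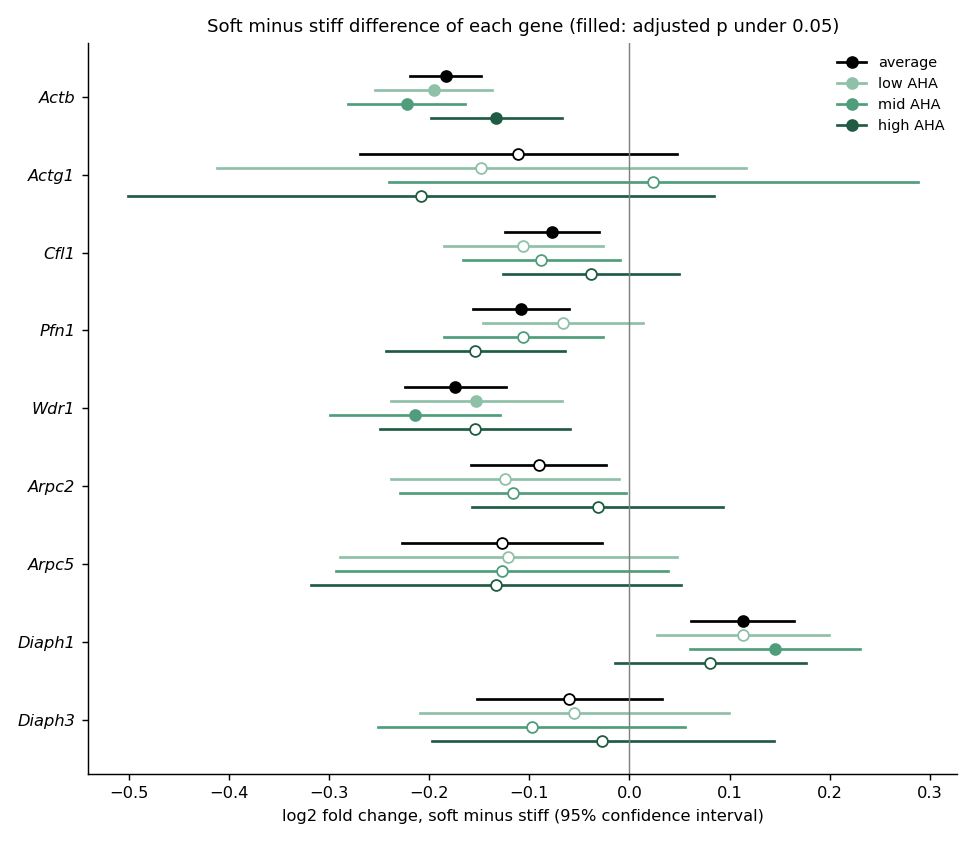
Log2 fold change, soft minus stiff, of each gene (points) with its 95% confidence interval (lines), averaged over AHA (black) and at low, mid and high AHA (light to dark green); filled points had an adjusted p under 0.05. With libraries scaled to a common total, Actb was filled at all 3 concentrations, Wdr1 at low and mid AHA, Diaph1 at mid AHA, and the widest intervals belonged to Actg1.

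These directions are relative to the other protein-coding genes, because libraries were scaled to a common total with TMM. Scaling to the ERCC spike-ins moved the median of all genes from 0.001 to 0.066 and left 1 of the 9 genes called, where 1.44% of all genes were called lower and 5.48% higher. The log2 fold changes were then -0.12 for Actb, -0.11 for Wdr1, -0.044 for Pfn1 and -0.012 for Cfl1, none of which passed (adjusted p = 0.0996, 0.18, 0.655 and 0.918). Diaph1 stood at 0.18 and passed (adjusted p = 0.00997). At single concentrations the calls of Actb (adjusted p = 0.238, 0.485 and 0.938 at low, mid and high AHA), Wdr1 and Diaph1 were lost under this scaling.

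At single AHA concentrations, 2 of the 9 genes were called at low AHA (3.04% of all genes), 3 at mid AHA (2.86%) and 1 at high AHA (0.841%). An F test that the soft minus stiff difference was equal at the 3 concentrations called none of the 9 genes (0.0298% of all genes were called, and the smallest unadjusted p was 0.126, for Actb). DESeq2 likewise called none. At an unadjusted p under 0.05 the F test counted 0 of the 9 genes and 6.71% of all genes. The concentration of AHA itself was compared at each stiffness, high with low, mid with low and high with mid. None of the 9 genes was called in these 6 contrasts by edgeR or DESeq2, and the share of all genes called was 0.253%, 0% and 0.067% on soft gels and 0.00744%, 0% and 0.00744% on stiff gels. At an unadjusted p under 0.05 the shares of all genes, in the same order, were 8.51%, 6.1% and 6.81% on soft gels and 6.04%, 4.99% and 5.83% on stiff gels. Diaph1 was the only member below that limit, in 1 of the 6 contrasts, with a lower level at high than at mid AHA on soft gels (log2 fold change -0.11, adjusted p = 0.664 by edgeR). For Actb the 6 log2 fold changes between AHA concentrations lay between -0.035 and 0.061, and their 95% confidence intervals reached from -0.093 to 0.13. The interval of Actg1 was wider, from -0.41 to 0.43.

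Actg1 (ENSMUSG00000062825, chr11:120345690-120348542, minus strand) had few counts for a cytoplasmic actin, 106 to 205 reads per library against 14218 to 22075 for Actb. Its levels in soft libraries were 23.3, 30.6 and 31 CPM at low AHA, 30.5, 27.7 and 28.6 CPM at mid AHA, and 28.9 and 26.2 CPM at high AHA. In stiff libraries they were 34.2, 27.1 and 32.2 CPM at low AHA, 23.9, 27.8 and 33.6 CPM at mid AHA, and 25, 36.1 and 35.7 CPM at high AHA. The groups overlapped widely. The log2 fold change was -0.11 ± 0.08 with a 95% confidence interval of -0.27 to 0.047 (adjusted p = 0.474). This interval includes the value measured for Actb, so a fall of that size was not excluded for Actg1. Small RNA genes (Gm23419 and Mir6935) on its own strand covered 5.53% of its exon bases.

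A match of its transcript to the GENCODE M21 transcripts (at least 80% identity over at least 300 bases) gave 18 annotated processed pseudogenes of Actg1. Of these, 8 were in the count table, and 7 had at least 3 counts in a library. Processed pseudogenes are copies of spliced mRNA that were inserted back into the genome. A stretch of 60 bases of coding sequence is shown to let the copies be compared, with capitals at the bases that differ from Actg1.
Actg1: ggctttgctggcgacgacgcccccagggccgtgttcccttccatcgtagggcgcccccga
Gm12715: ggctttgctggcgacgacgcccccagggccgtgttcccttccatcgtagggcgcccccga
Gm8399: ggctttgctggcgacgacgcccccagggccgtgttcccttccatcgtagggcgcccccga
Actg-ps1: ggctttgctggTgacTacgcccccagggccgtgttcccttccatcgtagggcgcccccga
Actb: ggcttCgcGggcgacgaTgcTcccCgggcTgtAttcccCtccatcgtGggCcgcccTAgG
In GRCm38 these stretches lie at chr11:120347975-120348034 (minus strand, Actg1), chr4:103563459-103563518 (plus, Gm12715), chr13:81064741-81064800 (plus, Gm8399), chr8:46229050-46229109 (plus, Actg-ps1) and chr5:142905570-142905629 (minus, Actb). Gm12715 and Gm8399 had no difference from Actg1 in this stretch, Actg-ps1 had 2 and Actb had 13.

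Over the whole match, Gm12715 was 99.6% and Gm8399 98.6% identical to Actg1. Of all stretches of 75 bases in the coding sequence of Actg1, 97.1% occurred unchanged in transcripts of other genes, against 4.57% for the coding sequence of Actb. None of those in the 3' UTR of either gene did. The read length was not given in the sources used here, and at 50 or 100 bases the share for Actg1 coding sequence was 100% or 91.9%. How reads that matched several places were handled was not given either.

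The copies carried many of the reads. Gm12715 was counted at 525 to 764 and Gm8399 at 320 to 660 reads per library. Summed over the 17 libraries, the copies of Actg1 took 19662 reads, which is 721% of the 2728 reads of Actg1 itself. The copies of Actb (5 of 6 in the table) took 5650 reads, or 1.86% of the 303677 of their parent. For Cfl1 the share was 13.4%, nearly all of it in Gm6180 (98.8% identity, 12.9%), and for Arpc5 it was 2.04%. Pfn1 and Arpc2 each had 1 annotated copy that was not in the count table, so its reads were not measured. No copy was found for Wdr1, Diaph1 and Diaph3.

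**Figure D3:**
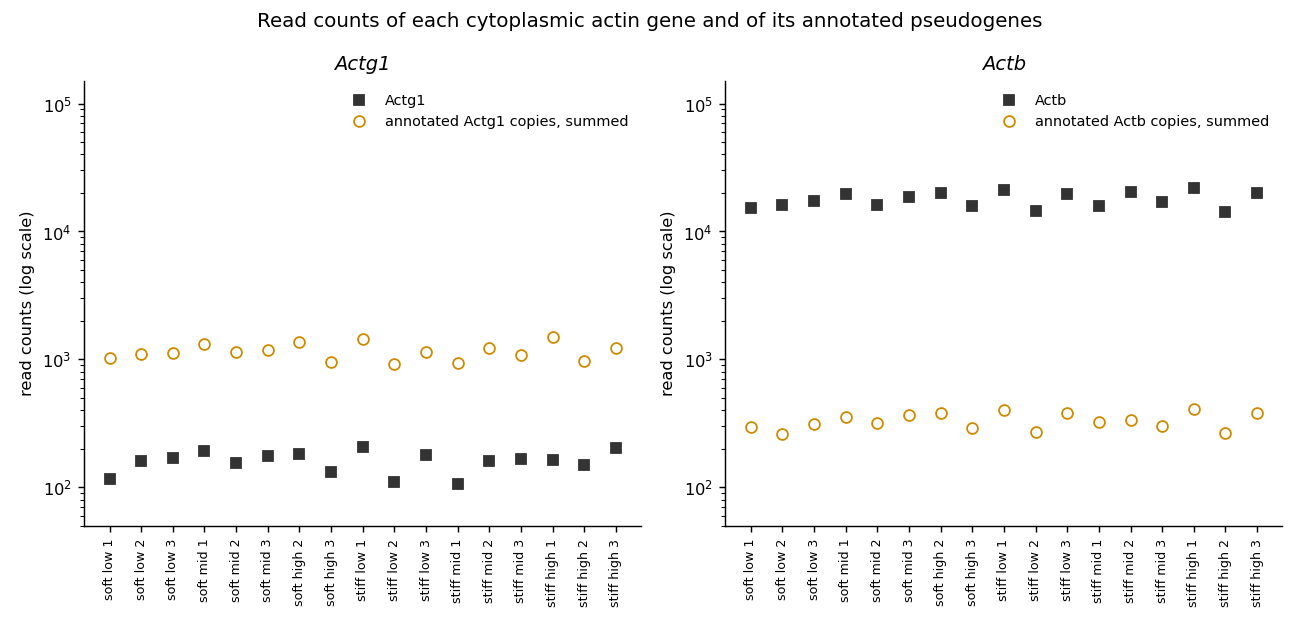
Read counts (log scale) of Actg1 (left) and Actb (right) as filled squares, and of their annotated pseudogenes with at least 3 counts in a library, summed, as open circles, in each of the 17 libraries. The copies of Actg1 lay between 928 and 1488 reads, above the 106 to 205 reads of Actg1 in every library, whereas those of Actb lay between 263 and 410 reads, far below Actb.

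With the counts of the copies added to each parent, Actg1 rose to 232 ± 10.2 CPM in soft and 253 ± 13.4 CPM in stiff libraries. Its log2 fold change was then -0.13 ± 0.031, with a 95% confidence interval of -0.19 to -0.064, and passed the test (adjusted p = 0.00236). It passed at no single concentration (adjusted p = 0.178, 0.555 and 0.176 at low, mid and high AHA). Adding copies left Actb at -0.18 (adjusted p = 1.86e-16). Tested separately in a fit of 16350 genes of every biotype, Gm12715 stood at -0.10 (adjusted p = 0.116) and Gm8399 at -0.15 (adjusted p = 0.153). Among the 9 copies of Actb and Actg1 that passed the filter, 1 was called (6.95% of all genes in that fit), the Actb copy Gm8464, with 3.47 ± 0.507 CPM in soft and 4.97 ± 1.12 CPM in stiff libraries (-0.53 ± 0.17, adjusted p = 0.0373).

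Ratios of transcripts within a library do not depend on the scaling between libraries, and 5 pairs were compared. Each test permuted the soft and stiff labels within each AHA concentration over all 4000 arrangements, was exact and two-sided, and was adjusted over the 5 pairs. The differences given are means of the differences at the 3 concentrations, so they need not equal the difference of the printed means. The log2 ratio of Diaph3 to Diaph1 counts was -2.25 ± 0.11 (SD, n = 8) in soft and -2.07 ± 0.101 (n = 9) in stiff libraries, a difference of -0.17 (exact permutation p = 0.0055, adjusted 0.0275). The log2 ratio of Arpc5 to Arpc5l was 0.722 ± 0.167 in soft and 0.95 ± 0.125 in stiff libraries, a difference of -0.23 (exact permutation p = 0.011, adjusted 0.0275). Soft and stiff libraries overlapped for both. The Diaph3 to Diaph1 ratio lost its call without soft, high AHA replicate 3 (adjusted 0.0531) or stiff, low AHA replicate 1 (adjusted 0.0525). The Arpc5 to Arpc5l ratio lost it without any 1 of 6 libraries, at adjusted values of 0.0525 to 0.0775: soft, low AHA replicates 2 and 3, soft, high AHA replicates 2 and 3, and stiff, low AHA replicates 1 and 3.

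The other pairs did not pass. The log2 ratio of Actb to Actg1 was 6.76 ± 0.136 in soft and 6.85 ± 0.233 in stiff libraries (exact permutation p = 0.446, adjusted 0.446). With the pseudogene counts added to both it was 3.76 ± 0.0698 and 3.82 ± 0.0877 (exact permutation p = 0.199, adjusted 0.249). The differences for Cfl1 to Dstn (0.064) and Pfn1 to Pfn2 (0.11) had adjusted exact permutation p-values of 0.141 and 0.42.

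The wider actin machinery was described with 7 lists of 100 genes from general knowledge, of which 94 were tested. On soft gels 15 of them were lower and 5 higher (4.82% and 3.77% of all genes), with a median log2 fold change of -0.058. Without the 9 members, 11 of 85 were lower and 4 higher (median -0.036). With TMM scaling, lower calls outnumbered higher calls in 4 of the 7 lists, and higher calls outnumbered lower ones among formins and regulators of filament ends. This balance turned under ERCC scaling, with 4 lower and 8 higher calls among the 94 genes (1.44% and 5.48% of all genes) and a median of 0.0093. Lower calls then outnumbered higher ones in 1 list, the actins. The counts below are those with TMM scaling.

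Of the 6 actin genes, 3 were called lower. The largest called changes of the list were those of the smooth muscle actin Acta2, at 99.3 ± 15.7 CPM in soft and 146 ± 9.56 CPM in stiff libraries (-0.53 ± 0.041, adjusted p = 9.15e-23), and the skeletal muscle actin Acta1, at 29.2 ± 4.84 and 40.9 ± 4.36 CPM (-0.48 ± 0.075, adjusted p = 3.43e-07). Acta2 stood at -0.65 at low, -0.72 at mid and -0.21 at high AHA (adjusted p = 1.16e-13, 4.92e-16 and 0.18), and Acta1 at -0.48, -0.47 and -0.48 (adjusted p = 0.0107, 0.0169 and 0.0672). The 4 muscle markers summed to 25 to 44.1 CPM in soft and 38.7 to 51.4 CPM in stiff libraries, and Acta1 made up most of that. The muscle regulators Myod1 and Myog were at no more than 1 CPM in any library. Fibroblasts also express Acta2. Of the 6 feeder markers, Col1a1 differed most between gels (values above), while Col1a2 stood at 21.3 ± 3.95 CPM in soft and 23.8 ± 4.7 CPM in stiff, Col3a1 at 9.59 ± 2.04 and 9.87 ± 1.61 CPM, Pdgfrb at 4.97 ± 1.56 and 6.33 ± 1.78 CPM, Thy1 at 3.46 ± 1.14 and 4.04 ± 1.05 CPM, and Postn at 1.41 ± 0.796 and 1.04 ± 0.669 CPM. Their part in the values of Acta2 was not tested.

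Of 24 monomer binders and severing factors, 7 fell and 1 rose, with a median log2 fold change of -0.13. Besides Pfn1, Cfl1, Wdr1 and Dstn, the genes that fell were the severing protein gelsolin (Gsn, -0.31 ± 0.048, adjusted p = 5.83e-07), the monomer-sequestering thymosin beta 4 (Tmsb4x, -0.22 ± 0.046, adjusted p = 0.00197) and Cap1 (-0.10 ± 0.028, adjusted p = 0.00706), which recycles monomers. Coro1b, a coronin of branched networks, rose (0.17 ± 0.044, adjusted p = 0.00393). Of 7 tested cofilin kinases and phosphatases, edgeR and DESeq2 each called 0. The lowest adjusted p of this list was that of Ssh1, named after its value was seen (-0.10, adjusted p = 0.194 by edgeR).

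The 10 genes of the Arp2/3 complex were called in 1 case, Arpc4 (154 ± 4.53 CPM in soft and 170 ± 8.34 CPM in stiff libraries, -0.14 ± 0.035, adjusted p = 0.00336). The values of Actr2 (-0.012), Actr3 (-0.07), Actr3b (-0.077), Arpc1a (-0.0082), Arpc1b (-0.066) and Arpc3 (-0.041) did not pass (adjusted p = 0.297 to 0.965), nor did Arpc5l (0.10, adjusted p = 0.408). Actr3 passed in 1 of 25 alternatives, where soft, high AHA replicate 2 was dropped and replicate 1 kept (adjusted p = 0.0392). The median of the complex was -0.068. Among 18 activators of the complex, the WIP family gene Wipf3 (-0.30 ± 0.10, adjusted p = 0.0481), the WAVE complex gene Cyfip2 (-0.14 ± 0.045, adjusted p = 0.0367) and cortactin (Cttn, -0.11 ± 0.03, adjusted p = 0.00923) fell. Wipf3 lost its call in 21 of 25 alternatives and Cyfip2 in 12 of 25, DESeq2 included, which called 1 gene of this list.

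Of 13 formins, 2 rose on the average, Diaph1 and its paralog Diaph2, which went from 46.8 ± 4.29 CPM in stiff to 54.1 ± 5.4 CPM in soft libraries (0.18 ± 0.06, adjusted p = 0.0367). Diaph2 lost its call in 9 of 25 alternatives, among them DESeq2, which called 1 formin. Fhod3, a formin counted at 10.4 CPM, was called at low AHA only (0.92 ± 0.22, adjusted p = 0.00399), with 0.23 at mid, -0.24 at high AHA and 0.30 on the average (adjusted p = 0.714, 0.818 and 0.15). Among 18 regulators of filament ends, the filament elongation factor Enah rose (0.14 ± 0.022, adjusted p = 2.09e-07), as did the nucleator Cobl (0.13 ± 0.038, adjusted p = 0.0216), while Vasp, a paralog of Enah, fell (-0.12 ± 0.033, adjusted p = 0.00978). The values of Cobl were 0.026 at low, 0.05 at mid and 0.30 at high AHA (adjusted p = 0.932, 0.814 and 0.0111), and the average lost its call without soft, low AHA replicate 2, soft, high AHA replicate 3 or stiff, high AHA replicate 3 (highest adjusted p = 0.11). Vasp lost its call under ERCC scaling and without soft, high AHA replicate 3.

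Scaling to ERCC ended the calls of Dstn, Cap1, Arpc4, Wipf3, Cyfip2, Cttn and Vasp, kept those of Acta2, Acta1, Gsn, Tmsb4x, Coro1b, Diaph2, Enah and Cobl, and added Jmy, Mical3 and Wasf3 as higher. The thymosin Tmsb10 was called at mid AHA only (-0.32 ± 0.09, adjusted p = 0.0232) and not on the average (-0.15, adjusted p = 0.067). Cap1, Fhod3, Tmsb10, Jmy, Mical3 and Wasf3 lie outside the rule for naming genes and were named after their values were seen.

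**Figure D4:**
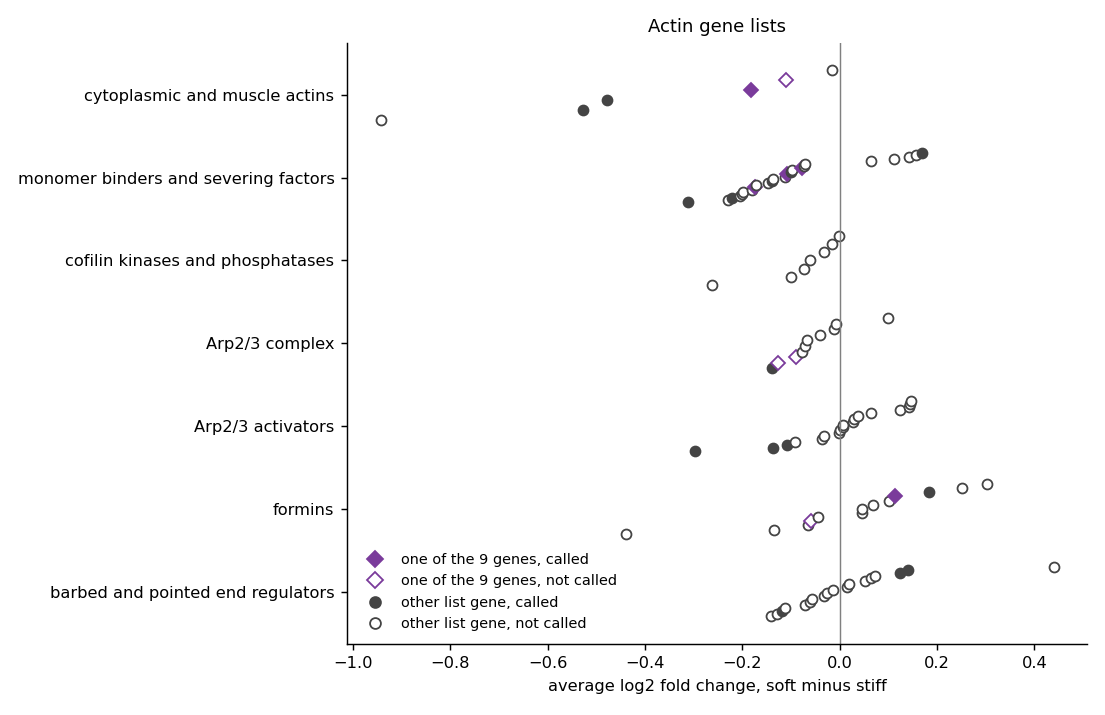
Average log2 fold change, soft minus stiff, of every tested gene of 7 actin lists (horizontal axis), 1 point per gene and sorted within each list; filled points had an adjusted p under 0.05, and diamonds mark the 9 genes described here. Among the formins both filled points lie to the right of 0, and among the actins all 3 filled points lie to the left.

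Actb is widely used as a reference gene in quantitative PCR, so it was set beside 13 other common reference genes. With TMM scaling, 1 of these 14 was called (Actb), beside 8.59% of all genes, and ERCC scaling ended that call (adjusted p = 0.0996). The other 13 had log2 fold changes between -0.27 and 0.027. The value furthest from 0 was that of B2m, at 14.9 ± 2.28 CPM in soft and 18.2 ± 2.34 CPM in stiff libraries (-0.27 ± 0.10, adjusted p = 0.0757), and B2m passed in 3 of 25 alternatives, each without 1 library (lowest adjusted p = 0.0425). Hprt stood at -0.10 ± 0.041 (adjusted p = 0.12) and passed in 1 alternative, without soft, low AHA replicate 3 (adjusted p = 0.0456). Gapdh, counted at 37 CPM, stood at -0.074 ± 0.072 (adjusted p = 0.628). Pseudogenes of the reference genes other than Actb were not searched for, so their part in these levels and changes was not tested. A gene that is not called has not been shown to be equal on the gels, and the interval of Gapdh ran from -0.22 to 0.068.

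**Figure D5:**
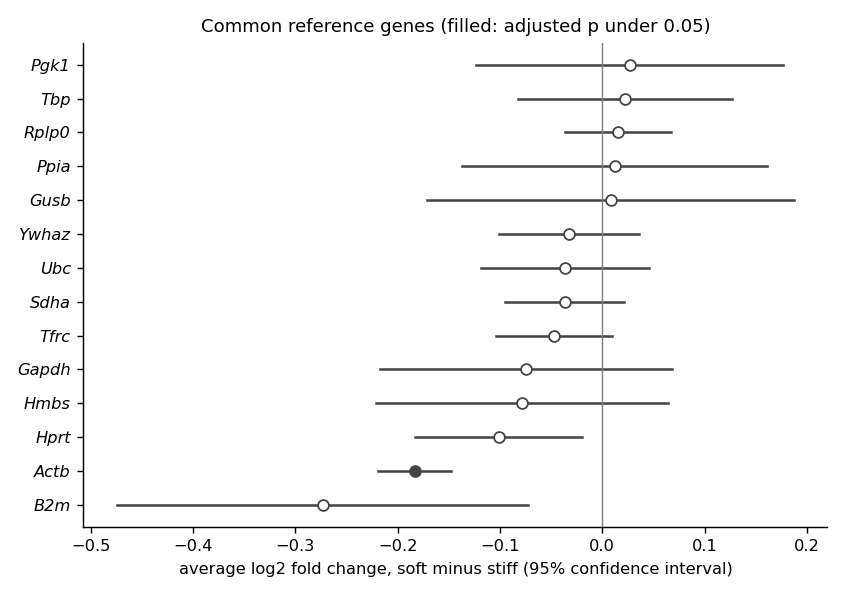
Average log2 fold change, soft minus stiff, of 14 common reference genes with 95% confidence intervals, sorted by value; the filled point had an adjusted p under 0.05. In this TMM-scaled fit Actb is the filled point, with an interval of -0.22 to -0.15, and B2m lies furthest to the left at -0.27.

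RefSeq promoter sequences (GRCm38.p6) were given for 7 of the 9 genes, without Actb and Diaph1. They were searched on both strands, over 250 bases before the RefSeq start, for the CArG box, the element bound by SRF. The reason for the search was that 4 of the 9 genes were called lower on soft gels with TMM scaling. The RefSeq start differs from the GENCODE gene bounds given above for several genes: the windows of Wdr1 and Arpc2 lie inside those bounds, and those of Actg1 and Diaph3 overlap their edge. A full CArG box was found in 1 of the 7, Actg1, starting 90 bases before the start, and occurs in 1.47% of 32851 promoters. With up to 1 mismatch allowed, which 18.6% of promoters meet, Wdr1 had a match 53 bases and Cfl1 a match 165 bases before the start, and Pfn1, Arpc2, Arpc5 and Diaph3 had none in this window. The motif GGAATG, recognised by TEAD factors, was found in Pfn1 and Arpc2 (12.6% of promoters), and the GC box core GGGCGG in Actg1, Pfn1, Wdr1, Arpc2 and Arpc5 (32.7% of promoters). The CArG matches overlapped neither of these motifs. The promoters of Actg1 (chr11:120348496-120348745, minus strand) and Wdr1 (chr5:38561700-38561949, minus strand) are shown with the match in capitals.
Actg1 promoter: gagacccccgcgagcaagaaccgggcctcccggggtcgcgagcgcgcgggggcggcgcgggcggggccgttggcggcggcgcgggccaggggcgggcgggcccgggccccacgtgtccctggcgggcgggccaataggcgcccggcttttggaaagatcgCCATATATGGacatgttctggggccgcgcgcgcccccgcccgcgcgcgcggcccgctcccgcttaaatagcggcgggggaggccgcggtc
Wdr1 promoter: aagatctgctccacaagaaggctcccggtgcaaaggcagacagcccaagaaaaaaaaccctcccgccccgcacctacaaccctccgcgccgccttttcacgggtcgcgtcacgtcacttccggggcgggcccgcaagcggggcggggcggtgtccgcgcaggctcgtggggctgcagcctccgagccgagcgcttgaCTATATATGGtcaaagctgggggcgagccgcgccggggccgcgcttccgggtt
A match of letters describes the sequence only, and binding was not measured.

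Finally, the 9224 tested genes with at least 10 CPM were ranked by how closely their log2 CPM followed that of a member over the 17 libraries, as a description in which the split into soft and stiff libraries is shared by all points. The genes closest to Actb were Noct (Pearson r = 0.957), the integrin subunit Itga3 (0.956) and the actin crosslinker Actn4 (0.947). Those closest to Wdr1 were Amotl2 (0.934), Unc5b (0.924) and Clcn5 (0.92), and those closest to Diaph1 were Ticrr (0.887), Kdm5b (0.884) and Usp28 (0.874). The closest to Cfl1 was Ybx3 (0.893), to Arpc2 Rock2 (0.894), to Diaph3 Slc1a3 (0.843), to Pfn1 Grhl2 (0.831) and to Arpc5 Aimp2 (0.805). Actg1 had the loosest match of the 9, with Sdhaf2 at 0.759.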

How the data were processed

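The authors trimmed reads of total RNA libraries with Trim Galore 0.4.4, aligned them with GSNAP to GRCm38/mm10 and summed reads over Ensembl genes with HTSeq. What they deposited is a table of raw counts, which they later analysed with DESeq2. Strand use and the treatment of multiply matching reads were not given in the sources used here. Symbols, coordinates and exon lengths were taken from GENCODE M21.

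Differences were tested by quasi-likelihood in edgeR 4.0.16 (R 4.3.3) on the 13438 protein-coding genes that filterByExpr kept at a minimum count of 10. The design had 1 coefficient per group and TMM factors, and the soft, high AHA library rich in ERCC was not used. Benjamini-Hochberg adjustment ran over all these genes in each contrast. The common dispersion was 0.00286. CPM refers to the TMM-scaled total of the tested genes, and CPM per kilobase divides it by exon length. Pseudogenes were found with BLAST 2.17.0+ on annotated transcripts. Ratios used counts plus 0.5. Scripts were checked on simulated data. Alternatives were RLE and ERCC scaling, DESeq2 1.42.0, no filter, every biotype, all 18 libraries, pseudogene counts added, fits of 2 groups and each library left out.

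The genes, lists and tests were chosen with earlier results of these data known. Named were the 9 genes, per list up to 3 called genes with the highest and 3 with the lowest fold change, paralogs and complex partners of members, reference genes and actin pseudogenes. The results of 1 gene list are not reported here. Markers of other cell types were also summed. Those of primitive endoderm lay between 15.7 and 25 CPM, of mesoderm between 6.65 and 18.7 CPM and of neuroectoderm between 10.6 and 22.4 CPM over all libraries used.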

Additional observations from a re-analysis of the deposited data

Results flagged for a closer look

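Of 28 sets of soft or stiff libraries (the CPM of 9 genes and the 5 log2 ratios), 1 held a library far from the rest. The log2 ratio of Diaph3 to Diaph1 was -2.32 in stiff, mid AHA replicate 1, below the other 8 stiff libraries, with a gap of 0.57 of the whole range. Chance alone marks about 1 in 20 such sets.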

How the results depend on the processing

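No paired analysis was possible because the labels give no replicate numbers shared between groups. Counts of called members stayed within 1.5 times under RLE scaling, DESeq2, no filter and every biotype. Without the filter, Cfl1 lost its call. ERCC scaling reduced them from 5 to 1 for the average, from 2 to 0 at low AHA, from 3 to 0 at mid AHA and from 1 to 0 at high AHA. The calls in the lists outside the members went from 11 lower and 4 higher to 4 lower and 7 higher. The cause was not tested. At high AHA the count was 3 with all 18 libraries, 3 with soft replicate 2 or 3 left out in place of replicate 1 (chosen after seeing the data) and 0 in a fit of the 2 groups. Leaving out each library in turn gave 1 to 2 at low AHA, 0 to 2 at high AHA, and 0 to 2 of the ratios (2 with all 17). No alternative called a member in an AHA contrast or the interaction.

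Some values that did not pass the test turned in direction. Under ERCC scaling these were Diaph3 on the average (0.0049), at mid (0.0044) and at high AHA (0.079), Cfl1 at mid (0.013) and high AHA (0.0703), Arpc2 at high AHA (0.077), and Actr2 (0.054), Arpc1a (0.057) and Arpc3 (0.022) on the average. Leaving out single libraries, the values ranged from -0.075 to 0.158 for Actg1 and from -0.206 to 0.011 for Diaph3 at mid AHA, from -0.11 to 0.029 for Arpc2 and from -0.069 to 0.018 for Diaph3 at high AHA, and on the average from -0.041 to 0.0104 for Actr2, from -0.034 to 0.015 for Arpc1a and from -0.151 to 0.0091 for Arpc1b. With soft, high AHA replicate 2 left out in place of replicate 1, Gapdh went to 0.016 and the Pfn1 to Pfn2 ratio to -0.00798, and with replicate 3 Arpc2 at high AHA went to 0.028. Actg1 had at most 205 reads per library, and what its low count owes to its pseudogenes was not tested.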
